A study of Mus musculus with 16 samples.

Results

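Liver RNA from mice that drank antibiotic water was compared with liver RNA from mice that drank control water, all after a gavage of fast food slurry. The comparison used 8 of the 16 libraries of the study, 4 from each water, and every gene with enough counts to test, 13180 of the 25006 in the table. All animals were C57BL/6 mice, an inbred laboratory strain, and every liver was taken 4 h after 1 oral dose of slurry. The study also holds 4 libraries for each water after a chow slurry, and its title names the gut microbiome and metabolite patterns after a fast food meal. Which antibiotics were used, at what dose and for how long is not stated in the sources used here, nor is the age or sex of the mice. The labels say that mice were assigned to the waters at random but not that each replicate is a separate mouse, so the p-values measure the spread between these libraries, which may in part be technical.

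The liver receives blood from the gut through the portal vein, and with it nutrients, bacterial products and metabolites that bacteria make. Antibiotics in the drinking water deplete gut bacteria, which changes the bile acid pool and the bacterial signals that reach hepatocytes and Kupffer cells, the resident macrophages of the liver sinusoids. Hepatocytes answer a meal through insulin, glucagon and glucocorticoids, and the pulses of growth hormone typical of males set much of the difference between male and female mouse liver.

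Total counts ran from 18102482 to 18882589 in the fast food control libraries and from 9768038 to 18189816 in the fast food antibiotic libraries. A set of 4 features that collect reads resembling ribosomal RNA (Lars2, Mir6236, Gm20594 and Mir6240) took 0.162% to 0.338% of counts in the controls. In antibiotic replicates 1 to 4 they took 6.17%, 2.71%, 0.587% and 8.23%. The groups did not overlap in this share, so share and water are nearly aligned with the fast food meal, while with chow each water had 2 libraries above 1% and 2 below. Antibiotic replicate 2 also stood apart, with 1398 CPM (counts scaled to a common library size with TMM factors) of the acute phase transcript Saa1 against 9.05 to 23.5 in the other 3 libraries of its group. Hepatocyte markers were abundant in all 8 libraries, with summed levels of 102205 to 113543 CPM in controls and 89223 to 161844 CPM with antibiotics.

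With the fast food meal, genes called lower with antibiotic water included 6 of 17 major urinary protein genes, 6 of 10 Kupffer cell markers and 5 of 21 glucuronosyl- and sulfotransferases. Genes called higher included Cux2, Esr1, Zbtb16 and 16 of 23 genes of chromatin proteins. The urinary protein and chromatin lists were put together after the values were seen, so their counts are descriptions. edgeR's quasi-likelihood test, adjusted over all genes with a threshold of 0.05, called 790 of 13180 genes (5.99%). Of these, 497 were higher (3.77% of genes tested) and 293 lower (2.22%) with antibiotics, and 202 differed at least 2-fold. At an unadjusted p under 0.05 there were 3433 genes (26%). The 4 and 4 libraries did not overlap for 746 of the 790 genes, and for 18.4% of all genes tested. The median log2 fold change of all genes was 0.018.

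When the rRNA-like share entered the model as a covariate, edgeR called 0 genes (1578 at an unadjusted p under 0.05, lowest adjusted p 0.162), and likewise 0 with the split at 1% as a term (1677, lowest adjusted p 0.0839). All 790 genes kept the sign of their fold change in both fits. Among the libraries with a share under 1%, 1 antibiotic against 4 control, with the lone library assumed to vary like the other groups, 50 genes were called and 36 of them were among the 790. The share also moved with many of these genes where no antibiotic was given. Among the chow libraries on control water, the 2 with a share over 1% both lay beyond the 2 under 1% in the direction of the fast food effect for 531 of the 790 genes (67.2%), against 39.1% of all genes tested, a description with no test. The high-share libraries, replicates 1 and 2, also had fewer counts (8954378 and 14081870 against 18334016 and 18725630). Saa1 was 336 CPM in replicate 2 and 10.6 to 27.7 CPM in the other chow controls. Share, depth and acute phase RNA cannot be told apart there. The same separation held for 46 of the 88 called genes named here. Clec4f, Kmt2d, Setd1b, Irf7, Ifit2, Ifit3, Ces3a, Ces1f, Ces2e and Srebf2 were among them. It did not hold for Cux2, Fmo2, Esr1, Mup7, Mup17, Gclc, Zbtb16, Isg15 or Ces1d.

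The count also moved with single libraries. It was 117, 168, 78 and 536 without control replicates 1 to 4, and 509, 378, 933 and 186 without antibiotic replicates 1 to 4, and 68 of the 790 genes kept their call in all 8 of these fits. Among the 88 called genes named here, 10 did: Cux2, Itgb3, Fmo2, Folr2, Gclc, Esr1, Ccl25, Kmt2a, Kmt2e and Brpf3. Of these, Itgb3, Folr2, Ccl25, Kmt2a, Kmt2e and Brpf3 also lay apart by share in the chow libraries on control water. Calls below are those of the fit without the share, and whether they hold apart from it cannot be told from this design. Each list count below is to be read beside all genes tested, of which 5.99% were called, 3.77% higher and 2.22% lower.

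**Figure D1:**
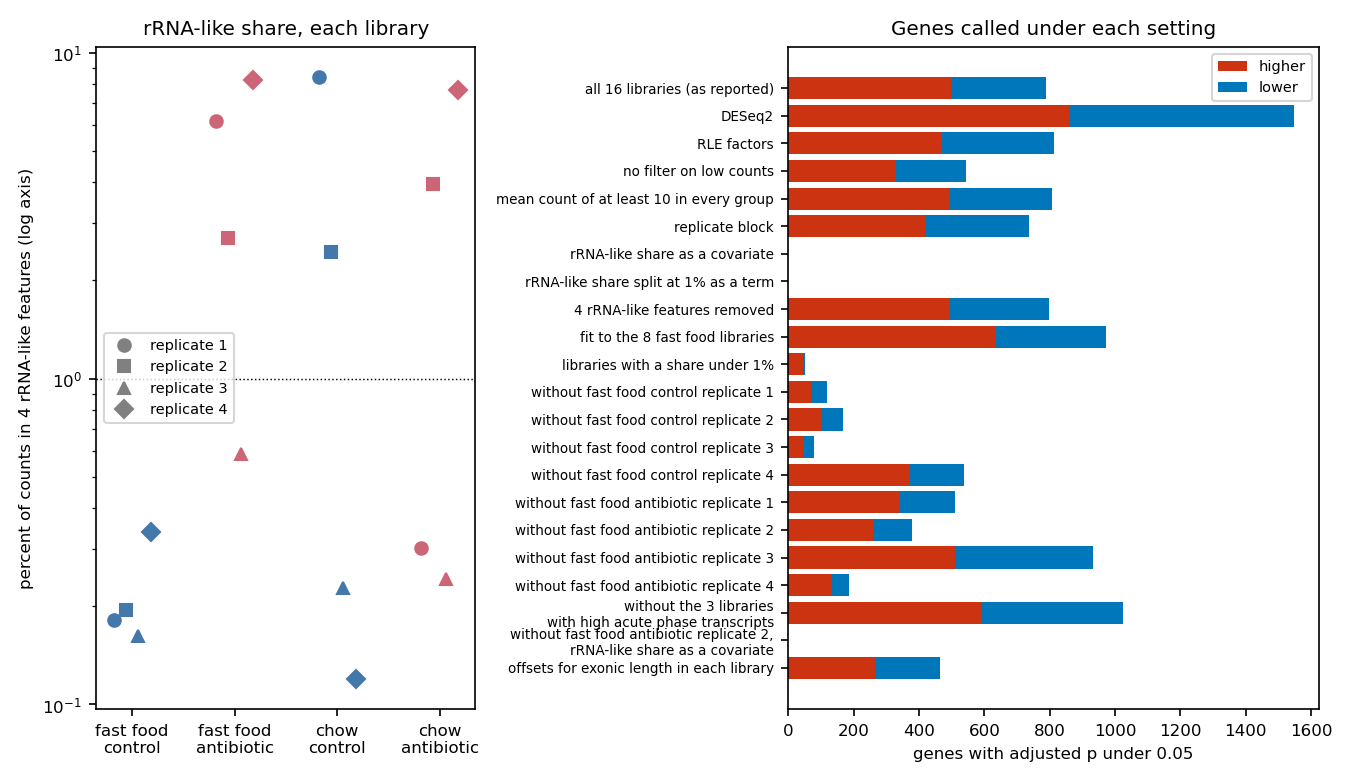
Left, percent of counts in 4 rRNA-like features (log axis) for each library of the 4 groups, with symbols for replicates and a dotted line at 1%. Right, number of genes with an adjusted p under 0.05 under each setting, higher in red and lower in blue. The 4 fast food controls lie at 0.338% or less and 3 of 4 fast food antibiotic libraries above 1%, and the bars run from 0 genes with the share in the model to 1547 with DESeq2.

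Cux2, a homeobox transcription factor that is far more abundant in female than in male mouse liver, had the largest rise among the genes named (chromosome 5, 121856366 to 122050102, minus strand, GRCm38). Its level was 0.91, 0.886, 0.561 and 0.863 CPM in control replicates 1 to 4, and 8.66, 68.8, 4.49 and 25 CPM in antibiotic replicates 1 to 4. Every antibiotic library lay above every control, and replicate 2 was the highest. The log2 fold change was 5.04 ± 0.84 (SE, adjusted p = 0.0101), and 3.93 ± 0.64 without antibiotic replicate 2 (adjusted p = 0.013).

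Fmo2, a flavin monooxygenase gene on chromosome 1, stood at 83.9, 96.4, 77.1 and 102 CPM in the controls and at 198, 463, 169 and 245 CPM with antibiotics. The groups did not overlap and replicate 2 was again highest. Its log2 fold change was 1.58 ± 0.26 (adjusted p = 0.00815). Among the low-share libraries, where antibiotic replicate 3 stood alone for its group, the value for Fmo2 was 0.90. Esr1, the gene of estrogen receptor alpha on chromosome 10, had 26.2, 40.4, 31.8 and 43.6 CPM in the controls and 58.1, 110, 67.7 and 95.8 CPM with antibiotics. No antibiotic library reached down to a control, and Esr1 rose by 1.22 ± 0.19 on the log2 scale (adjusted p = 0.00733). The steroid hydroxylase gene Cyp17a1 was also called (1.24 ± 0.31, adjusted p = 0.0341), although antibiotic replicate 2 at 100 CPM lay within the control range of 73.1 to 116 CPM. Its call was lost without antibiotic replicate 4 (adjusted p = 0.0901).

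Of 17 tested female-biased liver genes, a list chosen after the values were seen, 3 were higher (Cux2, Fmo2 and Cyp17a1) and 0 lower, with a median log2 fold change of 0.04 against 0.018 for all genes. Of 26 male-biased liver genes, chosen in the same way, 6 were lower and 0 higher, 25 had negative fold changes and the median was -1.29. Of the 6, 4 were Mup genes. Without control replicate 3, edgeR called 0 of the 26 (12 at an unadjusted p under 0.05, 11 by DESeq2 over all libraries), and 1 without antibiotic replicate 2, when the median was -1.05.

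**Figure D2:**
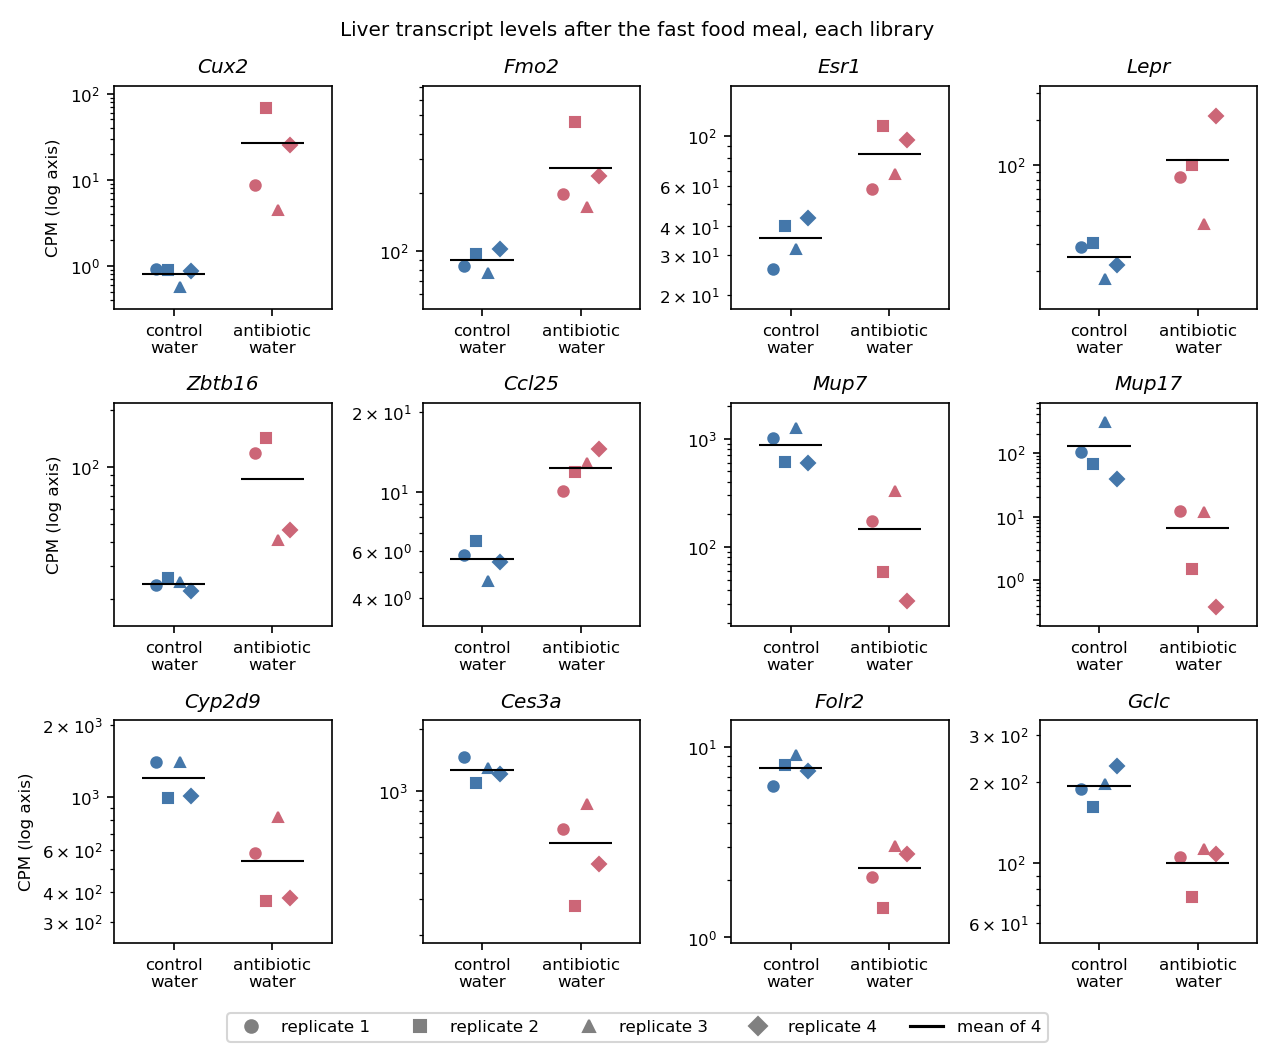
CPM (log axis) of 12 genes in each fast food library, control water in blue and antibiotic water in red, with a symbol per replicate and a bar at the mean of 4. The groups do not overlap in any panel, which for Cux2, Fmo2, Lepr, Zbtb16, Mup7, Mup17 and Folr2 was a condition of being named. Antibiotic replicate 2 (square) is the highest for Cux2 at 68.8 CPM and for Fmo2 at 463 CPM.

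Major urinary proteins are small secreted lipocalins that carry pheromones, made mainly by male mouse liver under growth hormone. Mup7 (chromosome 4, 60066469 to 60070475, minus strand, GRCm38) stood at 1009, 606, 1267 and 592 CPM in the controls and at 174, 58.9, 327 and 31.4 CPM with antibiotics. The highest antibiotic library, replicate 3, lay below the lowest control, and replicates 2 and 4 were the lowest. Mup7 fell by 2.55 ± 0.59 on the log2 scale (adjusted p = 0.0309).

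Mup17 (chromosome 4, 61591929 to 61595871, minus strand) had 102, 67, 309 and 39.1 CPM in the controls and 12.3, 1.51, 11.9 and 0.377 CPM with antibiotics, again without overlap. Its log2 fold change was -4.29 ± 0.91 (adjusted p = 0.0251), the largest fall among the genes named. Mup16 (-2.89 ± 0.70), Mup14 (-2.30 ± 0.50), Mup6 (-1.62 ± 0.44) and Mup4 (-1.80 ± 0.48) were the other members called. The family was made a list after the values were seen. All 17 tested members had negative fold changes, 6 were called and the median was -1.80. Summed over the family, the level was 7237 to 10554 CPM in controls and 1255 to 5503 CPM with antibiotics. Among the members that did not pass, values were -1.38 ± 0.40 for Mup3 (adjusted p = 0.053) and -0.40 ± 0.49 for Mup20 (adjusted p = 0.644). With edgeR 0 members were called without control replicate 1 or 3, or antibiotic replicate 2 or 4 (13 to 16 at an unadjusted p under 0.05), and 13 of 19 tested without antibiotic replicate 3. DESeq2 called 9 of 17 over all libraries.

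The Mup genes are close copies of each other, and counts could be split between them by the authors' counting, so single members are uncertain. The stretches of 100 bases before the RefSeq start of Mup4 and Mup6 (GRCm38.p6) are shown because they make this likeness visible. Mup4 is at chr4:59960668-59960767 on the minus strand and Mup6 at chr4:60003381-60003480 on the plus strand. They share a run of 36 identical bases, the longest among the 10 pairs of called members compared, of which the shortest was 7 bases. Each stretch is set by its gene's own RefSeq start and none were aligned, so a short run does not mean unlike copies. How reads were split between members cannot be read from these stretches.
Mup4: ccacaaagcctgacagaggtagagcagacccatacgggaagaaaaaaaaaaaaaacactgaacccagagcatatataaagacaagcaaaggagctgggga
Mup6: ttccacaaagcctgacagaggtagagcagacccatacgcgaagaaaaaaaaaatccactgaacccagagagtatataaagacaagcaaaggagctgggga
The 250 bases before the start were searched for TTCNNNGAA, the palindromic motif that STAT5 and related factors bind. It was found in 0 of the 5 called Mup genes in the promoter table, and in 7.02% of 32851 promoters. Mup16 had no entry.

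Among other genes of growth hormone signalling, Cyp2d9, a steroid hydroxylase typical of male liver, had 1395, 985, 1396 and 1008 CPM in the controls and 582, 366, 818 and 377 CPM with antibiotics. No library of one group reached the other, and the log2 fold change was -1.16 ± 0.23 (adjusted p = 0.013). The growth hormone receptor gene Ghr fell as well (-0.57 ± 0.16, adjusted p = 0.044), with antibiotic replicate 3 at 437 CPM inside the control range of 422 to 466 CPM. Of 15 tested genes in the growth hormone and STAT5 list 1 was higher (Cux2) and 2 lower. Socs2, a feedback inhibitor of that pathway, had a value of 1.63 ± 0.51 that did not pass (adjusted p = 0.0708), with 99.2 CPM in antibiotic replicate 2 and 20.3 to 31.1 CPM in the others.

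Of 10 Kupffer cell markers 6 fell with antibiotics. Clec4f, a lectin found in mice on Kupffer cells, stood at 73.8, 89.2, 90.7 and 86.5 CPM in the controls and at 65.7, 36.3, 42.7 and 49.2 CPM with antibiotics. All antibiotic libraries were lower, with replicate 1 closest to the controls. Clec4f fell by 0.81 ± 0.22 on the log2 scale (adjusted p = 0.0439). Among the low-share libraries, where antibiotic replicate 3 stood alone for its group, the log2 fold change of Clec4f was -1.0.

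None of the 10 was called higher, all had negative fold changes, and the median was -0.95. Timd4, a receptor for apoptotic cells on resident macrophages (-1.18 ± 0.25), the complement receptor gene Vsig4 (-1.01 ± 0.25), the scavenger protein gene Cd5l (-1.22 ± 0.31), and the complement genes C1qa (-0.89 ± 0.24) and C1qb (-1.01 ± 0.25) were the others called. The summed level of the list was 356 to 489 CPM in controls and 181 to 299 CPM with antibiotics, without overlap. In the chow libraries on control water Clec4f was 72.5 and 53.8 CPM with a share over 1% and 126 and 94.9 CPM under 1%. The summed list was 378 and 302 CPM against 837 and 414 CPM, so both were also lower with a high share and no antibiotic. C1qa, C1qb and Vsig4 lay apart in the same way. Timd4 (8.37 and 6.80 CPM against 15.0 and 6.69 CPM) did not. Cd5l narrowly did not (91.03 and 66.00 CPM against 220.29 and 90.99 CPM). In bulk RNA, fewer cells of a type and less RNA per cell cannot be told apart. Calls in the list numbered 1 without control replicate 1 or 4 or antibiotic replicate 2 or 3, 0 without control replicate 2 or 3 or antibiotic replicate 4 (9 at an unadjusted p under 0.05 in each), and 9 with DESeq2.

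Folr2, the gene of the folate receptor of resident macrophages, was not on that list and was among the largest falls. Its level was 6.26, 8.12, 9.07 and 7.52 CPM in the controls and 2.09, 1.44, 3.04 and 2.73 CPM with antibiotics. All antibiotic libraries lay below all controls (-1.72 ± 0.28, adjusted p = 0.00733). Wfdc17, a gene of myeloid cells, also fell (-1.46 ± 0.36, adjusted p = 0.0314).

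Markers of other liver cells moved less uniformly. Summed sinusoidal endothelial markers were 443 to 511 CPM in controls and 508 to 574 CPM with antibiotics, and 0 of 9 were called by edgeR (5 at an unadjusted p under 0.05, 2 by DESeq2). Stellate cell and collagen markers summed to 673 to 758 CPM in controls and 513 to 659 CPM with antibiotics, and 1 of 12 was called, the collagen gene Col1a2 (-0.88 ± 0.23). The Col1a2 call was lost without control replicate 2, 3 or 4 or antibiotic replicate 2 or 4. Cholangiocyte markers summed to 28.5 to 41.2 CPM in controls and 18.1 to 23.8 CPM with antibiotics. The bile duct keratin gene Krt19 was called (-1.70 ± 0.43) on 2 to 6 reads in antibiotic libraries against 9 to 28 in controls. Its call was lost without control replicate 1, 3 or 4 or antibiotic replicate 2, 3 or 4 (highest adjusted p 0.0933). Erythroid markers summed to 149 to 252 CPM in controls and 54.5 to 333 CPM with antibiotics, with 0 of 5 called by edgeR (0 at an unadjusted p under 0.05, 0 by DESeq2). White blood cell markers were low. B and plasma cell markers summed to 1.08 to 3.40 CPM in controls and 0.646 to 1.04 CPM with antibiotics. The B cell gene Ms4a1 was called (-2.72 ± 0.57) on 1 read in each antibiotic library against 6 to 15 in controls. This call was lost without control replicate 3 (adjusted p = 0.0654), and DESeq2 called 0 of the list. T and NK cell markers summed to 1.39 to 3.10 CPM in controls and 1.03 to 2.39 CPM with antibiotics. Neutrophil markers summed to 1.71 to 3.16 CPM in controls and to 2.49, 9.12, 1.24 and 1.32 CPM in antibiotic replicates 1 to 4. The pancreatic elastase gene Cela2a was called (4.42 ± 1.22, adjusted p = 0.0487). It was 10.9 CPM in antibiotic replicate 2 against 0 to 0.825 CPM in the other 7 fast food libraries. That call was lost without antibiotic replicate 2 (adjusted p = 0.195), and also without antibiotic replicate 4 or any single control. With chow, Cela2a was 9.81 to 18.6 CPM with antibiotics and 0 to 0.429 CPM in controls (6.75 ± 1.26, adjusted p = 0.00212). Of 7 acinar markers 5 had a count of 0 in all 8 fast food libraries. The part of these cells in the results was not tested.

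Few antigen presentation and interferon genes passed the test, and those that did were lower. Of 7 tested MHC class II genes 1 was called lower, the peptide-loading gene H2-DMa (-1.72 ± 0.45, adjusted p = 0.0361), all 7 had negative fold changes and the median was -1.29. The H2-DMa call held in 1 of the 8 fits with 1 library left out, that without antibiotic replicate 1. Of 34 interferon response genes 4 were called lower and 0 higher, 30 were negative and the median was -0.68. Irf7, the transcription factor that amplifies type I interferon, had 20.4, 28.4, 18.4 and 25.2 CPM in the controls and 12.4, 7.32, 12.6 and 12.5 CPM with antibiotics. The groups did not overlap (-1.04 ± 0.22, adjusted p = 0.0177).

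The antiviral genes Ifit2 (-1.34 ± 0.33) and Ifit3 (-1.23 ± 0.33) and the ubiquitin-like modifier gene Isg15 (-1.22 ± 0.32) were the other 3. Irf7, Ifit2 and Ifit3 were also lower with a high share in the chow libraries on control water, without overlap. Isg15 was low everywhere, at 2.73, 3.15, 2.29 and 1.73 CPM in the controls and 0.796, 0.646, 1.5 and 1.23 CPM with antibiotics, without overlap. edgeR called 0 of the 34 without control replicate 2 (8 at an unadjusted p under 0.05), which had the highest Irf7, Ifit2, Ifit3 and Isg15 of its group. DESeq2 called 8 over all libraries. The median stayed between -0.77 and -0.58 whichever single library was left out. Of 14 endotoxin sensing and NF-kB genes 0 were called by edgeR (0 at an unadjusted p under 0.05, 0 by DESeq2), with a median of 0.05.

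Promoters of the called interferon genes were searched over 250 bases before the RefSeq start for GAAA, any 2 bases and again GAAA, the core of the interferon-stimulated response element, on both strands. It was in 2 of these 4 genes, Isg15 with 3 overlapping matches and Ifit3 with 2, and in 2.98% of 32851 promoters. The stretches below show the matches in capitals (RefSeq, GRCm38.p6). Isg15 is at chr4:156200830-156200929 on the minus strand and Ifit3 at chr19:34583362-34583461 on the plus strand.
Isg15: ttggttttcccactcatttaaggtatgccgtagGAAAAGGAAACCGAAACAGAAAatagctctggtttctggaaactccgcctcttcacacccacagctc
Ifit3: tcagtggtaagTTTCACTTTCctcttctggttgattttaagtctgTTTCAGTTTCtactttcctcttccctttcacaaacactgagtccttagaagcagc
A match is a description of the letters, not of binding.

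Among genes that conjugate and hydrolyse drugs and lipids, a minority passed the test. Of 12 carboxylesterases 4 were called lower and 0 higher, with a median of -0.66. Ces3a, a lipid hydrolase of hepatocytes, had 1455, 1099, 1295 and 1212 CPM in the controls and 653, 278, 864 and 441 CPM with antibiotics. The antibiotic libraries all lay below the controls, replicate 2 being the lowest (-1.18 ± 0.29, adjusted p = 0.0312). Ces1d (-0.94 ± 0.21), Ces1f (-1.30 ± 0.33) and Ces2e (-1.22 ± 0.34) were the other 3. Ces3a, Ces1f and Ces2e were also lower with a high share in the chow libraries on control water, without overlap. Ces1d overlapped there.

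Of 21 UDP-glucuronosyltransferases and sulfotransferases 5 were lower and 0 higher, with a median of -0.63. They were Ugt2b35 (-1.06 ± 0.23), Ugt2b1 (-1.06 ± 0.29), Ugt2b5 (-0.67 ± 0.17), Ugt3a2 (-0.63 ± 0.17) and Ugt1a1, which conjugates bilirubin (-0.54 ± 0.15). Both families hold close paralogs whose counts can be split. Without control replicate 1 or 3 or antibiotic replicate 4, 0 members of either family were called, and without antibiotic replicate 3 there were 8 carboxylesterases, all lower, and 12 transferases, 11 of them lower. The carboxylesterases also had 0 without control replicate 2. Among the low-share libraries the medians were -0.17 and -0.25, and edgeR called 0 of either (2 and 3 at an unadjusted p under 0.05).

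Targets of the xenobiotic receptors CAR and PXR did not move together, with 1 of 18 higher, 1 lower and a median of -0.32. Por, the reductase that feeds electrons to all microsomal P450 enzymes, rose (0.52 ± 0.15, adjusted p = 0.0496), and Aldh1a1, a retinal dehydrogenase, fell (-1.08 ± 0.27, adjusted p = 0.032). Cyp3a11, the main P450 induced through PXR, was 980, 1342, 1152 and 2305 CPM in the controls and 880, 81.8, 635 and 351 CPM with antibiotics. Its groups did not overlap, but the value of -1.57 ± 0.50 did not pass (adjusted p = 0.0749). Cyp2b10, the classic CAR target, was at 0 to 2.29 CPM in all 8 libraries (-0.59 ± 0.61, adjusted p = 0.577). Of 8 aryl hydrocarbon receptor targets 0 were called (2 at an unadjusted p under 0.05, 0 by DESeq2), and Cyp1a2 had a value of -0.63 ± 0.34 (adjusted p = 0.249).

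Gclc, the catalytic subunit of the enzyme that limits glutathione synthesis, fell clearly. It stood at 188, 162, 197 and 230 CPM in the controls and at 106, 74.9, 113 and 109 CPM with antibiotics. The highest antibiotic library was well under the lowest control (-0.95 ± 0.16, adjusted p = 0.00742). It was the sole call among 22 tested NRF2 and glutathione genes, whose median was -0.05. Gstp1, a glutathione transferase, did not pass (-0.48 ± 0.28, adjusted p = 0.301).

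Of 14 bile acid synthesis genes 2 were lower and 0 higher, 13 were negative and the median was -0.31. Without control replicate 1, 2 or 3 or antibiotic replicate 4, edgeR called 0 of them (4 to 6 at an unadjusted p under 0.05), and DESeq2 called 4 over all libraries. Hsd3b7, which acts on the sterol ring early in synthesis, fell by 0.62 ± 0.15 on the log2 scale (adjusted p = 0.0322), and the steroid dehydrogenase gene Akr1c6 by 0.75 ± 0.21 (adjusted p = 0.0478). Cyp7a1, the rate-limiting enzyme, ran from 118 to 585 CPM in controls and from 73.8 to 610 CPM with antibiotics, and its value was -0.05 ± 0.99 (adjusted p = 0.983). Cyp8b1, which directs synthesis to cholic acid, was 21 CPM in antibiotic replicate 2 and 344 to 548 CPM in the other 3, within the control range of 256 to 620 CPM (-0.37 ± 0.65, adjusted p = 0.763). Of 16 transport and FXR feedback genes 1 was lower, the sterol exporter gene Abcg5 (-0.73 ± 0.18, adjusted p = 0.0293). The Abcg5 call was lost when any single library other than antibiotic replicate 3 was left out. Among the chow controls Abcg5 was 75.1 and 59.2 CPM with a share over 1% and 89.5 and 88.7 CPM under 1%. The FXR target Nr0b2 (-0.30 ± 0.70) and the bile acid uptake carrier gene Slc10a1 (0.09 ± 0.14) did not pass.

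**Figure D3:**
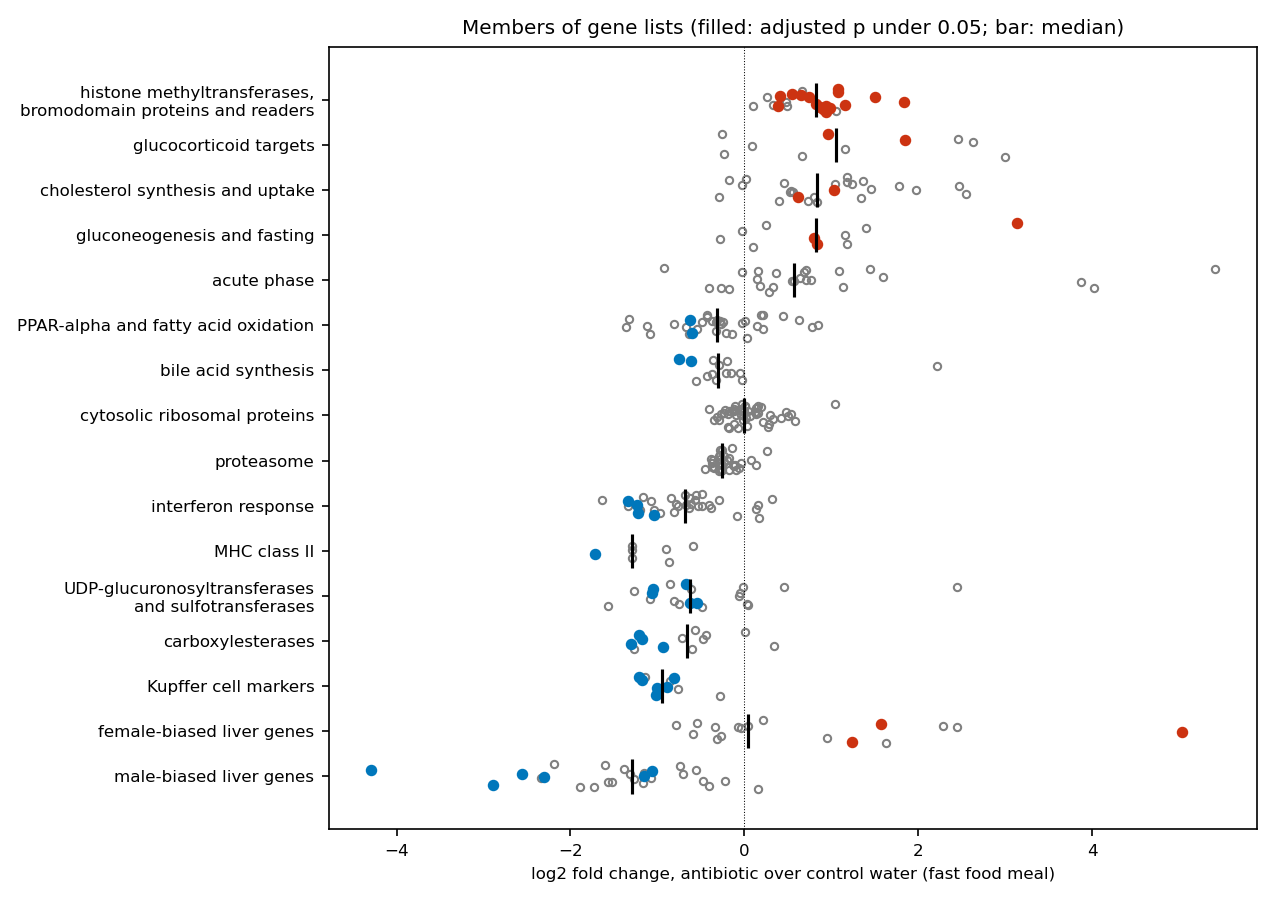
Log2 fold change of antibiotic over control water with the fast food meal (x axis) for the tested members of 16 gene lists (rows). Filled points have an adjusted p under 0.05, red higher and blue lower, open points do not, and bars mark list medians. The chromatin list has all 23 members above 0 and the Kupffer cell list all 10 below 0.

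Some genes of the glucocorticoid and fasting responses were higher, and most did not pass. Of 10 glucocorticoid targets 2 were called higher and 0 lower, with a median of 1.06. Zbtb16, a zinc finger factor induced by glucocorticoids, had 23.9, 25.7, 24.7 and 22.1 CPM in the controls and 118, 141, 40.9 and 46.1 CPM with antibiotics. Its groups were well apart, and replicates 1 and 2 were the highest (1.84 ± 0.34, adjusted p = 0.013). The clock gene Per1, which glucocorticoids also induce, rose by 0.96 ± 0.23 (adjusted p = 0.0309) and was the sole call among 19 clock genes. Per2 did not pass (0.27 ± 0.16, adjusted p = 0.316). Neither Zbtb16 nor Per1 was called without control replicate 3 (7 of 10 targets at an unadjusted p under 0.05), and DESeq2 called 7. The Per1 call was also lost without control replicate 4 or antibiotic replicate 1, 2 or 4.

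Of 10 genes of gluconeogenesis and fasting 3 were higher and 0 lower, with a median of 0.82. Igfbp1, a secreted binding protein of insulin-like growth factors that insulin represses, had 61.8, 127, 48.6 and 38.1 CPM in the controls and 624, 1479, 89.5 and 238 CPM with antibiotics. Antibiotic replicate 3 lay inside the control range, and the other 3 were above it (3.14 ± 0.84, adjusted p = 0.0472). The insulin-restrained transcription factor gene Foxo1 (0.84 ± 0.23) and the serine dehydratase gene Sds, also on the amino acid and periportal lists (0.80 ± 0.21), were the others. Pck1, which commits carbon to glucose, did not pass (0.24 ± 0.39, adjusted p = 0.735). edgeR called 0 of the 10 when any single library other than antibiotic replicate 3 was left out (6 at an unadjusted p under 0.05 in each), and 5 without that one, and DESeq2 called 6. The aspartate transaminase gene Got1 rose by 1.08 ± 0.29 (adjusted p = 0.0419), and with Sds it made up the 2 calls among 20 amino acid genes. Both calls were lost when any single library other than antibiotic replicate 3 was left out.

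Lipid genes were mixed. Of 33 PPAR-alpha and fatty acid oxidation genes 2 were lower and 0 higher, with a median of -0.32. The share called over all genes tested was 5.99%, so so few calls do not set this list apart. Acadm, which oxidises medium-chain fatty acids, was among them (-0.63 ± 0.17). Cpt1a (0.14 ± 0.20) and the hepatokine gene Fgf21 (0.78 ± 0.49), both targets of PPAR-alpha, did not pass. Of 20 fatty acid and triglyceride synthesis genes 2 were higher. Acacb, which makes the malonyl-CoA that restrains fatty acid oxidation, had 65.6, 70.5, 57.8 and 48.1 CPM in the controls and 161, 77.6, 113 and 99.7 CPM with antibiotics. All 4 antibiotic libraries exceeded the controls (0.90 ± 0.20, adjusted p = 0.0225).

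Lpin1, a phosphatidate phosphatase that also coactivates fasting genes, rose by 1.84 ± 0.46 (adjusted p = 0.0383), with replicates 1 and 2 at 878 and 1104 CPM and replicates 3 and 4 at 283 and 241 CPM against 92 to 222 CPM in controls. Fasn (0.61 ± 0.34) and Scd1 (0.45 ± 0.93) did not pass. The calls for Acadm, Acacb and Lpin1 were lost without at least 1 library (highest adjusted p 0.123, 0.0745 and 0.102).

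Of 25 cholesterol synthesis and uptake genes 2 were called higher and 0 lower, 22 were positive and the median was 0.84. Srebf2, the transcription factor that drives the pathway, had 23, 25.7, 19.5 and 19.8 CPM in the controls and 27.7, 75.4, 44.2 and 31.8 CPM with antibiotics. The groups did not overlap, and replicate 2 was the highest (1.03 ± 0.25, adjusted p = 0.0307). Among the chow controls, Srebf2 was 22.9 and 32.6 CPM with a share over 1% and 20.5 and 22.8 CPM under 1%. Dhcr7, which performs a last step of cholesterol synthesis, rose by 0.61 ± 0.17 (adjusted p = 0.0466). Without antibiotic replicate 2 the list had 0 calls (6 at an unadjusted p under 0.05) and a median of 0.45. It also had 0 calls without any one of the 4 controls, 10 without antibiotic replicate 1 and 10 with DESeq2.

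Choline and trimethylamine genes had 1 call among 20 (Fmo2, higher) and a median of 0.00027. Of 15 pericentral genes 2 were lower. Cyp2e1, an abundant P450 of hepatocytes near the central vein, had 11493, 10798, 10634 and 9945 CPM in the controls and 5718, 6233, 8480 and 4684 CPM with antibiotics, without overlap (-0.77 ± 0.17, adjusted p = 0.0241). The Wnt inhibitor gene Notum also fell (-0.66 ± 0.16). Of 26 nuclear receptors 2 were higher, Esr1 and Ppard (1.07 ± 0.30), and the cold-inducible RNA-binding protein gene Cirbp was the sole call among 13 heat shock genes (-0.60 ± 0.16). The calls for Ppard, Cirbp, Cyp2e1 and Notum were lost without at least 1 control library (highest adjusted p 0.131, 0.108, 0.0734 and 0.0921). With 5.99% of all genes called, the 1 or 2 calls in each of these lists are values of single genes.

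Genes of histone methyltransferases, bromodomain proteins and their readers, which write or bind marks on chromatin, were grouped because several were among the rises. The list was put together after the values were seen and gets no test. Of 23 members 16 were higher and 0 lower, all 23 were positive, and the median was 0.83. Kmt2d, which methylates histone H3 at enhancers, had 23.3, 25.1, 24.8 and 36 CPM in the controls and 89.8, 70.3, 65.7 and 83.8 CPM with antibiotics. Its groups did not overlap (1.5 ± 0.35, adjusted p = 0.029). On control water with chow, Kmt2d was 65.4 and 60.2 CPM in the libraries with a share over 1% and 22.2 and 17.7 CPM in those under 1%.

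Setd1b (1.84 ± 0.39), Kmt2a (1.08 ± 0.20), Kmt2b (0.98 ± 0.19), Kmt2e (0.94 ± 0.16), Ash1l (0.87 ± 0.20) and Nsd1 (0.41 ± 0.12) were the other SET domain genes called. The bromodomain and reader genes called included Brpf3 (1.16 ± 0.19), Bptf (0.83 ± 0.17), Brpf1 (0.65 ± 0.16), Brd2 (0.55 ± 0.15) and Brd1 (0.38 ± 0.11). The acetyltransferase genes Ep300 (0.94 ± 0.20) and Crebbp (0.91 ± 0.21) and the remodeller gene Ep400 (0.74 ± 0.16) were called as well. On control water with chow, Setd1b was 20.4 and 12.2 CPM with a share over 1% and 4.86 and 4.97 CPM under 1%. The summed list was 1156 and 1231 CPM against 770 and 770 CPM there, 808 to 1078 CPM in the fast food controls and 1335 to 1614 CPM with antibiotics, so a high share without antibiotics went with a higher level. The antibiotic library with a share under 1%, replicate 3, was at 1335 CPM. The count was 9 without antibiotic replicate 2, 4 without control replicate 3, 5 among the low-share libraries and 12 with offsets for exonic length.

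Transcript length moved with the direction of change. The median exonic length was 7420 bases over the 497 higher genes, 2750 bases over the 293 lower genes and 4426 bases over all genes tested with a length. The part of length in the chromatin list and in the other results was not tested beyond the offsets.

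**Figure D4:**
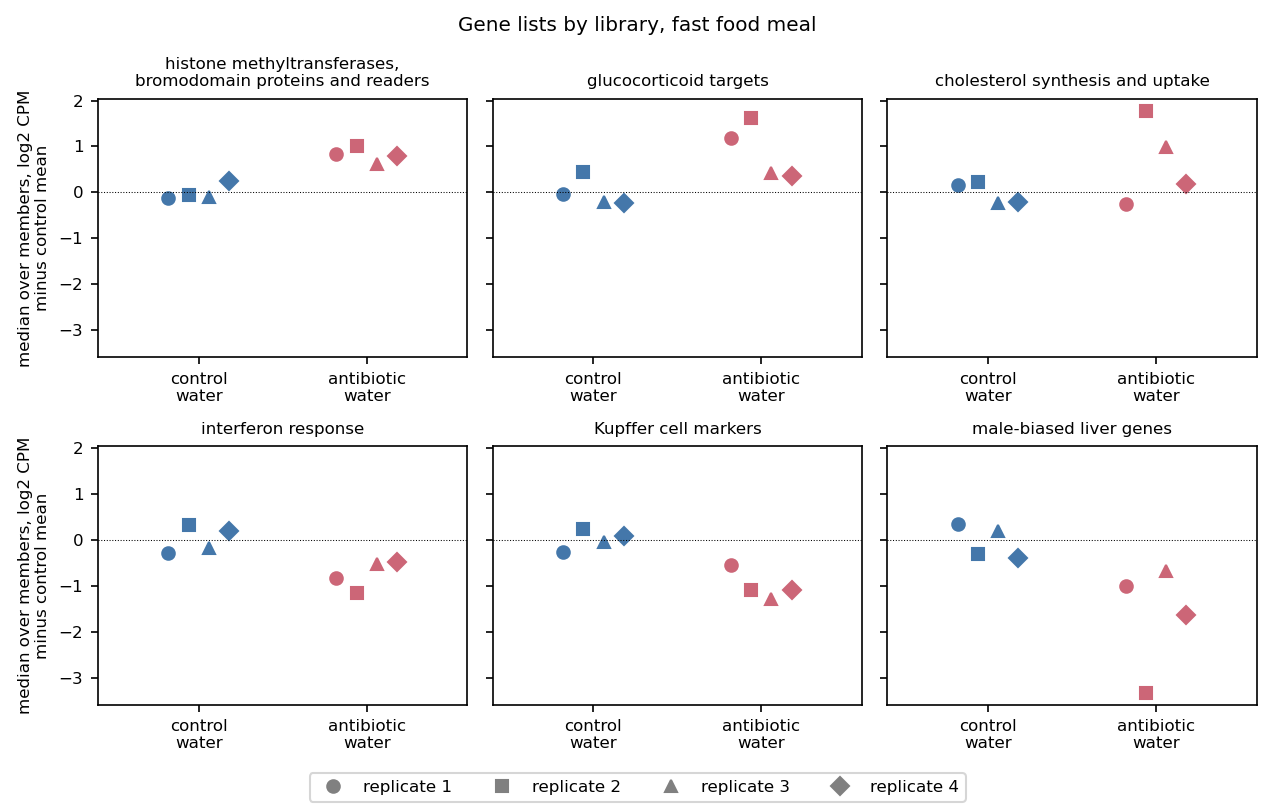
Median over the members of 6 lists of log2 CPM (pseudocount 0.1) minus the mean of the 4 control libraries, for each fast food library, control water in blue and antibiotic water in red. The chromatin list lies at 0.62 to 1.0 in the 4 antibiotic libraries and at -0.12 to 0.24 in controls, Kupffer cell markers at -1.29 to -0.55 with antibiotics, and for cholesterol synthesis antibiotic replicate 1 lies at -0.25, below all controls.

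Per library, the median of the male-biased list relative to the control mean was -1.0, -3.33, -0.67 and -1.64 in antibiotic replicates 1 to 4, and -0.39 to 0.35 in controls. All antibiotic libraries were below the controls, and replicate 2 was the lowest. The interferon list gave -0.82, -1.16, -0.53 and -0.48, below the control range of -0.30 to 0.32. For glucocorticoid targets, replicates 3 and 4 (0.42 and 0.36) lay below control replicate 2 (0.44), so these groups overlapped.

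Several large groups had 0 genes called by edgeR. All but 1 of 44 nuclear-encoded respiratory chain genes were negative, with a median of -0.18 (8 at an unadjusted p under 0.05, 1 called by DESeq2), and 29 of 32 proteasome genes were negative with a median of -0.26 (17 at an unadjusted p under 0.05, 7 by DESeq2). Of all genes tested, 52.2% were positive and 47.8% negative. Cytosolic ribosomal proteins split evenly, 24 positive and 24 negative (4 at an unadjusted p under 0.05, 0 by DESeq2). Acute phase genes had a median of 0.57 (5 at an unadjusted p under 0.05, 1 by DESeq2), which became -0.35 without antibiotic replicate 2. In that list Saa1 had 18.4, 37.7, 17 and 25.8 CPM in the controls and 23.5, 1398, 20.2 and 9.05 CPM with antibiotics (3.88 ± 1.98, adjusted p = 0.238), and the hepcidin gene Hamp did not pass (0.71 ± 0.29, adjusted p = 0.14). Chaperones and the unfolded protein response (20 genes, median -0.34) also had 0 calls (8 at an unadjusted p under 0.05, 2 by DESeq2), and 5 called lower without antibiotic replicate 2. Immediate early genes (16 genes, median 0.31) had 0 calls (1 at an unadjusted p under 0.05, 0 by DESeq2).

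Among the other large rises, Plppr1, a membrane protein gene of the lipid phosphatase family, had 0.803 to 1.93 CPM in controls, 22.8 CPM in antibiotic replicate 2 and 3.48 to 3.68 CPM in the other 3 antibiotic libraries (2.55 ± 0.63, 1.30 ± 0.37 without replicate 2, adjusted p = 0.0667). Lepr, the leptin receptor gene, had 28.6, 30.5, 17.8 and 22 CPM in the controls and 83.7, 100, 41.2 and 210 CPM with antibiotics. The groups did not overlap, and replicate 4 was the highest (2.14 ± 0.58, adjusted p = 0.0489). The transcription factor genes Zfhx2 (1.96 ± 0.36), Zfp9 (1.95 ± 0.45) and Tead1 of the Hippo pathway (1.69 ± 0.46), the splicing factor gene Srrm4 (1.71 ± 0.46) and the integrin gene Itgb3 (1.62 ± 0.29) rose as well. Without replicate 2, Zfp9 had 1.34 ± 0.38 (adjusted p = 0.0664).

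Among the falls, Fitm1, which helps form lipid droplets, had 15.5 to 18 CPM in controls, 13.9 CPM in antibiotic replicate 3 and 2.64 to 3.38 CPM in the other 3 (-1.52 ± 0.42, adjusted p = 0.0477). The succinate receptor gene Sucnr1 fell by 1.4 ± 0.33, the carrier gene Slc16a11 by 1.4 ± 0.28 and the gene of the stress ligand Raet1d by 1.45 ± 0.36. Hectd2os, an antisense transcript whose reads cannot be told from those of Hectd2 without strand, also fell (-1.82 ± 0.51, adjusted p = 0.0475). Of the genes in these last 2 groups Itgb3 alone kept its call in all 8 fits with 1 library left out. For the others the highest adjusted p ran from 0.0508 (Zfhx2, without control replicate 3) to 0.134 (Lepr, without control replicate 3).

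After chow, antibiotic water was accompanied by more calls, 3138 genes (23.8%), of which 1393 were higher and 1745 lower. The comparisons in the 2 meals share no library. In both, 354 genes were called, which is 44.8% of the fast food calls and 11.3% of the chow calls, 159 higher in both, 174 lower in both and 21 in opposite directions. Of the 790 fast food calls 655 had the same sign with chow. Across all genes, which are not independent replicates, the log2 fold changes had a Pearson r of 0.448 and a Spearman rho of 0.401, given as a description.

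Cux2 rose with both meals, by 5.04 ± 0.84 with fast food and 3.99 ± 0.76 with chow, and the difference between the effects did not pass (adjusted p = 0.631). Kupffer cell markers had 8 of 10 called lower with chow and a median of -1.01 against -0.95 with fast food, and for 0 of 10 did edgeR call the difference. PPAR-alpha genes had 23 of 33 called lower with chow (median -0.97), against 2 with fast food (median -0.32), and the difference was called for 8. MHC class II genes had 7 of 7 called lower with chow (median -3.04) against 1 of 7, with 0 differences called.

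The difference between the effects was called for 519 genes (3.94%), of which 82 were among the 790. Ccl25, whose chemokine attracts gut-homing lymphocytes, had 5.78, 6.55, 4.64 and 5.43 CPM in the fast food controls and 10, 11.8, 12.8 and 14.5 CPM in the fast food antibiotic libraries. It rose without overlap (1.13 ± 0.16, adjusted p = 0.00514) and kept its call in each fit with 1 library left out. With chow it fell (-0.49 ± 0.17, adjusted p = 0.0461), and the difference was 1.62 ± 0.24 (adjusted p = 0.00348). Among the chow controls, Ccl25 was 8.48 and 8.31 CPM with a share over 1% and 6.39 and 5.80 CPM under 1%.

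Setd1b had 1.84 with fast food and -0.53 with chow (difference 2.37, adjusted p = 0.0295), and Esr1 had 1.22 and 0.17 (difference 1.06, adjusted p = 0.0377). Bcl2l11, a promoter of apoptosis, rose by 0.52 ± 0.14 with fast food and by 2.04 ± 0.14 with chow (difference -1.52 ± 0.19, adjusted p = 0.00199). Cyp7b1, the oxysterol hydroxylase of the alternative bile acid pathway, had 295, 156, 167 and 135 CPM in the fast food controls and 119, 106, 157 and 130 CPM with antibiotics, which overlap. With chow the effect was 2.59 ± 0.29, and the difference was -3.15 ± 0.39 (adjusted p = 0.00199). Gpld1 (-1.29 ± 0.18), the glucuronosyltransferase gene Ugt2a3 (-1.33 ± 0.19), the proteasome regulator gene Nfe2l1 (1.06 ± 0.14), the amino sugar enzyme gene Pgm3 (1.78 ± 0.25) and the nucleotide precursor enzyme gene Prps2 (1.53 ± 0.22) had the other lowest p-values for the difference, and none of these 5 was called with fast food. The count of 519 was 143 with the share as a covariate, 1494 without antibiotic replicate 2 of the fast food group and 164 without its replicate 4.

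**Figure D5:**
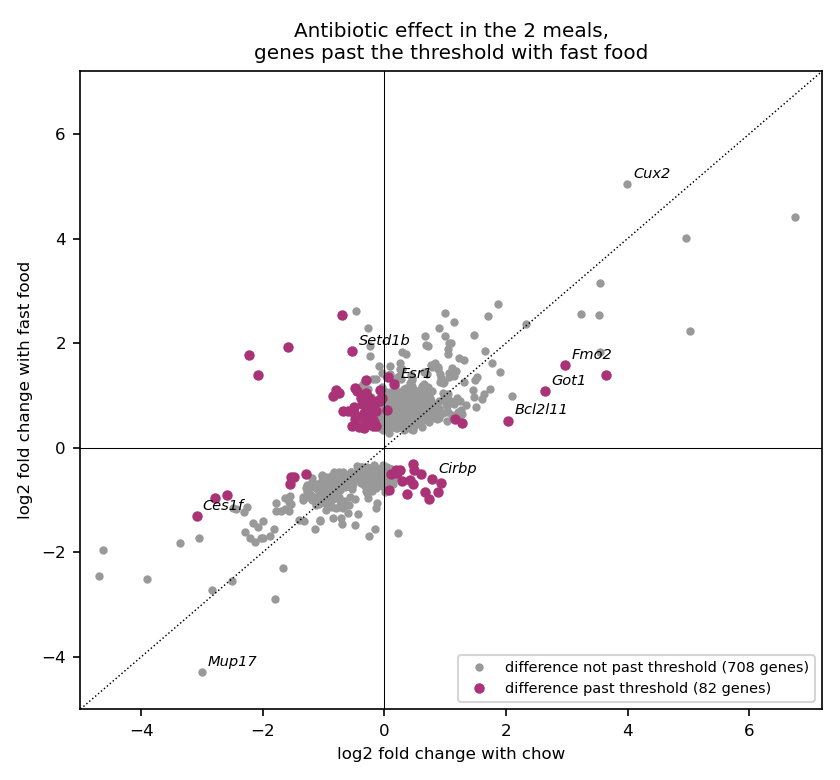
Log2 fold change of antibiotic over control water with chow (x axis) and with fast food (y axis) for the 790 genes called with fast food, with a dotted line of equal effects. The 82 genes whose difference between meals passed the threshold are in purple. Cux2 lies near the line at the upper right, and Setd1b and Esr1 lie high on the y axis with values near or below 0 on the x axis.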

How the data were processed

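Poly(A) RNA was read as single reads of 50 bases, per the labels' protocols. The authors deposited a table of unnormalized read counts for each gene. The genome build GRCm38.p6 and the tools STAR, HTSeq, cutadapt, FastQC, edgeR and DESeq2 are listed in the submitters' processing notes, without roles. The annotation release and strand setting are not stated in the sources used here. Of 25006 identifiers 24942 matched a symbol and coordinates in GENCODE M21. Every library had counts of 0 for the genes of the mitochondrial genome.

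The counts of all 16 libraries were filtered with edgeR's filterByExpr (minimum count 10), scaled with TMM factors and fitted in edgeR 4.0.16 (R 4.3.3) with a robust quasi-likelihood model of 4 group means (common biological coefficient of variation 0.222). Tests were two-sided, with Benjamini-Hochberg adjustment over all 13180 genes and a threshold of 0.05. The SE of a log2 fold change is its size divided by the square root of F. On simulated counts of this comparison over 13016 genes, 58.6% of 2-fold and 93.9% of 4-fold changes were called, with 7 false among 158 calls. The simulated libraries carried no effect of the rRNA-like share and none stood apart from its group. These rates therefore say nothing about either in the real libraries.

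Named genes were the 12 largest rises and 12 largest falls that were called, had libraries that did not overlap, a real symbol and mean log2 CPM not under 1, up to 6 called members of each list, 20 key genes, and the 8 lowest p-values for the difference between meals. Some single genes that the rule names are not reported here. Cyp17a1, Mup3, Mup4, Mup20 and the chromatin genes other than Setd1b were chosen after their values were seen. The comparison, 47 gene lists (763 genes) and these rules were chosen with earlier results of these data known, and 4 further lists after seeing the values. The comparison of chow libraries by share was also added then. Alternatives were DESeq2 1.42.0, other scaling and filters, the replicate block, the rRNA-like share, leaving out libraries and, added later, offsets for exonic length and the share without antibiotic replicate 2.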

Additional observations from a re-analysis of the deposited data

Results flagged for a closer look

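In 18 of 222 groups of 4 libraries examined, over the 111 named genes, 1 library lay far from the other 3. Chance flags about 1 in 20 groups, or 11.1 here. Of the 18, 10 were antibiotic replicate 2, and each is given in CPM with the nearest other library of its group. That library was high for Plppr1 (22.8 against 3.68), Zfp9 (8.69 against 3.30), Wfdc17 (5.31 against 2.99), Cela2a (10.9 against 0.825), Saa1 (1398 against 23.5), Socs2 (99.2 against 31.1) and Ash1l (192 against 139). It was low for Irf7 (7.32 against 12.4), Ifit3 (1.36 against 4.08) and Cpt1a (739 against 1311). Antibiotic replicate 3 stood apart for Mup16 (6.75 against 1.49), Fitm1 (13.9 against 3.38) and Aldh1a1 (1202 against 558). Among the controls, replicate 3 was low for Cux2 (0.561 against 0.863), replicate 1 was high for Ces1d (853 against 708), and replicate 4 was low for Got1 (261 against 405) and high for Kmt2b (17.5 against 13.8) and Kmt2d (36.0 against 25.1).

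For 18 named genes the antibiotic effect differed between the meals by edgeR's test of the difference, given as log2 fold change with fast food minus that with chow. For 8 of them the genes had been named for this difference: Bcl2l11 (-1.52), Nfe2l1 (1.06), Cyp7b1 (-3.15), Gpld1 (-1.29), Pgm3 (1.78), Ugt2a3 (-1.33), Prps2 (1.53) and Ccl25 (1.62). The value was more positive with fast food for the hepatokine gene Fgf21 (4.86, adjusted p = 0.00732), Setd1b (2.37, adjusted p = 0.0295), Ces1f (1.79, adjusted p = 0.0473), Gstp1 (1.66, adjusted p = 0.0322), Acacb (1.09, adjusted p = 0.0391) and Esr1 (1.06, adjusted p = 0.0377). It was more negative with fast food for Got1 (-1.57, adjusted p = 0.0423), Fmo2 (-1.40, adjusted p = 0.0459), Cirbp (-1.38, adjusted p = 0.00499) and Ugt3a2 (-0.93, adjusted p = 0.0371).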

How the results depend on the processing

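The fast food count of 790 (497 higher, 293 lower) was 1547 (860 and 687) with DESeq2, 465 (265 higher) with length offsets, and 50 (44 and 6) among libraries with a share under 1%. It was 0 with the share as a covariate, with the split at 1% as a term, and with the covariate without antibiotic replicate 2 (1447 at an unadjusted p under 0.05 in edgeR, lowest adjusted p 0.0956). Without a filter on low counts 330 were higher. Leaving out 1 library gave 78 to 933 genes, 46 to 510 higher and 32 to 423 lower. The difference count of 519 was 1120 (575 and 545) with DESeq2, 143 (86 and 57) with the covariate, 262 (162 and 100) with the split and 1851 (915 and 936) when the 3 libraries high in acute phase RNA were left out. Leaving out 1 library gave 164 to 1494, 94 to 845 higher and 67 to 649 lower. The causes were not tested.

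Genes that did not pass reversed under some settings. With the covariate Cyp7a1 was 0.83, Nr0b2 0.042 and Ugt2a3 0.13, and with the split Cyp7a1 was 0.80 and Ugt2a3 0.063. Under a 1% share Cyp7a1 was 0.73, Cyp8b1 0.22, Cyp1a2 0.11, Pck1 -0.0092, Saa1 -0.30, Hamp -0.078 and Ugt2a3 0.12. Without the 3 acute phase libraries Cyp7a1 was 0.27, Cyp8b1 0.0037, Saa1 -0.51 and Gpld1 -0.100. With the covariate and without antibiotic replicate 2, Cyp7a1 was 1.20, Cyp8b1 0.12, Saa1 -2.59, Hamp -0.026 and Ugt2a3 0.029. With length offsets Gpld1 was -0.00026 and Ugt2a3 0.082. Leaving out 1 library gave -0.45 to 0.28 for Cyp7a1, -0.64 to 0.019 for Cyp8b1, -0.86 to 0.12 for Nr0b2, -0.0074 to 0.21 for Slc10a1, -0.52 to 0.84 for Scd1, -0.49 to 4.28 for Saa1, -0.087 to 0.13 for Gpld1 and -0.15 to 0.038 for Ugt2a3.

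Same-numbered libraries did not deviate together (correlations -0.015 to 0.018), and the highest correlations with another number were 0.073 to 0.14. All these values are small, so whether the numbers mark a shared day or batch cannot be told from them. The replicate block gave 738 genes (355 for the difference, 204 of them higher), and reversed Cyp7a1 (0.059) and Scd1 (-0.32).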
